A study of Homo sapiens with 17 samples.

Results

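RANGAP1 eCLIP in 293T cells, a line derived from human embryonic kidney, gave 82629 RNA regions with at least 1 deposited peak. The peaks of all 6 proteins of the series, merged together, gave 219602 regions, in which several RANGAP1 regions can be joined into 1. The RANGAP1 regions were built from every peak of both replicates, 53243 in replicate 1 and 51526 in replicate 2, by merging same-strand peaks with an overlap of 1 nt or more. The compared libraries were 2 RANGAP1 eCLIP replicates, each read against 1 RANGAP1 size-matched input, and 9 eCLIP libraries of AIFM1, NUMA1, RNF219, VIM and ZNF184, each read against the input of its own protein. The labels give all samples as 293T cells, name no drug, genotype or time course, and state the same irradiation for all, 254 nm at 400 mJ/cm2, before lysis. RNF219 had 1 library and every other protein had 2. RANGAP1 was recovered with a single antibody in both replicates, and the lone control was the input.

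In eCLIP, ultraviolet light joins proteins covalently to RNA they touch, RNase trims the RNA, an antibody recovers 1 protein, and the attached fragments are sequenced. A size-matched input is the same slice of the gel taken before immunoprecipitation, so the fold over input asks whether a fragment came down with the antibody more than its abundance in that slice. RANGAP1 is the GTPase-activating protein of Ran, the small GTPase whose nucleotide state gives nuclear transport its direction. Part of the protein sits with RANBP2 on the cytoplasmic side of the nuclear pore, and in mitosis it moves to spindle and kinetochores. It has no classical RNA-binding domain, and the series took it up as a candidate RNA-binding protein, so the question was where on RNA it was enriched.

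Each deposited peak carried the authors' log2 fold over input and the authors' −log10 p, and these values are used throughout. A peak is called significant here when it reached 8-fold over input (log2 fold of 3 or more) with a −log10 p of at least 3. The folds were whole-number ratios times 1 constant per library, the ratio of input depth to eCLIP depth (1.48 and 1.78 in RANGAP1 replicates 1 and 2), so most read numbers could be recovered. The reads behind a significant peak were few, with a median of 15 eCLIP reads in replicate 1 and 16 in replicate 2 beside a median of 2 input reads in each. Next to a single input read a RANGAP1 peak needed 10 eCLIP reads in replicate 1 and 9 in replicate 2 to be significant. Input counts of 0 and 1 look alike in these values. Intervals on a fold are 95% exact binomial (Clopper-Pearson) intervals from these reads, and they cover counting error only, since PCR copies may be among the reads. Regions are given by hg19 position and strand, and gene names and transcript parts were not analysed here.

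Most RANGAP1 peaks lay a little above input and few lay far above it. The median log2 fold was 1.24 in replicate 1 and 1.42 in replicate 2, and 90.3% and 92.5% of the peaks were above input. Significant peaks numbered 810 in replicate 1 (1.52% of its peaks, 95% Wilson interval 1.42 to 1.63%). In replicate 2 they numbered 1542 (2.99%, 2.85 to 3.14%). In the other 9 libraries the lowest share was 0.214%, in AIFM1 replicate 2, and the highest 5.29%, in VIM replicate 1, so both RANGAP1 libraries fell inside that range. Beside these, 2455 and 2922 RANGAP1 peaks passed the p threshold at a lower fold, and 1301 and 2469 passed the fold threshold without the p.

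The significant peaks fell in 1935 regions, of which 341 were significant in both replicates and are called reproducible below. They made up 43.6% of the 782 regions significant in replicate 1 and 22.8% of the 1494 significant in replicate 2. The 43.6% reads against the 2.99% of peaks called in replicate 2, and the 22.8% against the 1.52% called in replicate 1. The called shares are per peak and not per region. Both replicates were set against the same input, so a low input count entered both folds at once. Of the 127 peaks with identical ends in both RANGAP1 lists, 77 had settled read numbers in both, and 76 of these had equal input reads, whereas 12 had equal eCLIP reads. Between RANGAP1 and the other proteins, 21 of 189 such peaks had equal input reads. How much the shared input adds to the agreement of the replicates was not tested.

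**Figure D1:**
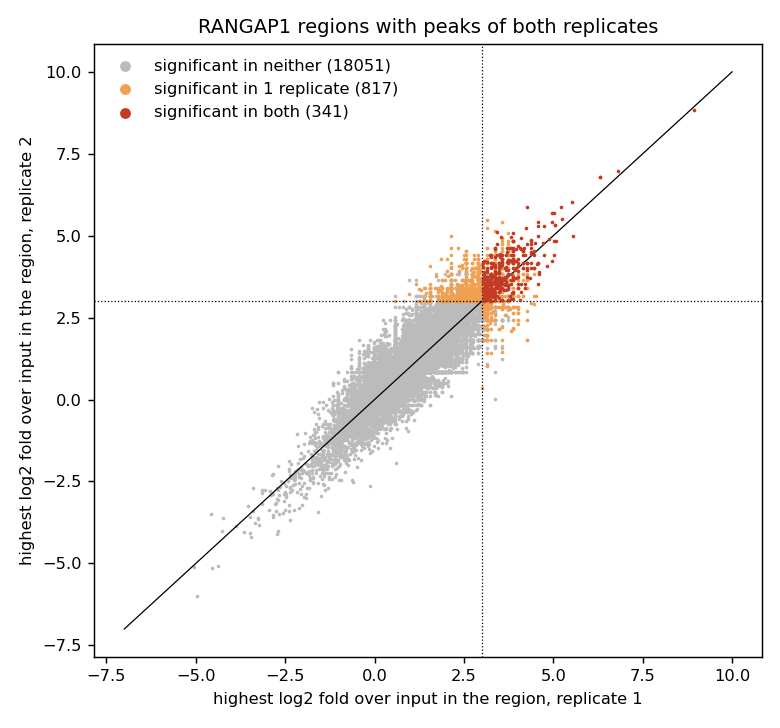
Highest log2 fold over input in each of the 19209 regions with peaks of both RANGAP1 replicates, replicate 1 on the horizontal axis and replicate 2 on the vertical axis. Dotted lines mark the log2 fold of 3 and the solid line marks equality; 90.2% of the regions lie within 1 log2 unit of it, and the 341 reproducible regions fill the upper right corner.

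Of the 82629 regions, 32536 had peaks of replicate 1 only, 30884 had peaks of replicate 2 only and 19209 had peaks of both. Where both replicates had a peak, the highest folds in the region were close. In these 19209 regions the difference of replicate 2 minus replicate 1 had a median of 0.12 and an SD of 0.58, and 17333 regions (90.2%) lay within 1 log2 unit. In the 341 reproducible regions the median log2 fold was 3.47 in replicate 1 and 3.74 in replicate 2, and replicate 2 was the higher in 241 of them (70.7%). By definition, a region significant in a single replicate was short of a threshold in the other or had no peak there. Of the 441 regions significant in replicate 1 alone, 202 (45.8%) had a replicate 2 peak and 239 had none. The highest replicate 2 log2 fold in those 202 had a median of 2.83 and a lowest of 0.34. Of the 1153 significant in replicate 2 alone, 615 (53.3%) had a replicate 1 peak and 538 had none. The highest replicate 1 log2 fold in those 615 had a median of 2.65 and a lowest of 0.56. None of these highest folds was below input, and regions without a peak have no fold to compare.

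The share of peaks found again was not even along the range of folds. Among replicate 1 peaks below input, 54% overlapped a replicate 2 peak, the share was lowest at 29.2% for log2 folds of 2 to 3, and it was 59.3% for folds of 4 to 5. At log2 folds of 5 or more, 20 of 21 replicate 1 peaks were significant in replicate 2 (95.2%, Wilson interval 77.3 to 99.2%), and 28 of 40 replicate 2 peaks were significant in replicate 1 (70%, 54.6 to 81.9%). In the band of 3 to 4, which held most significant peaks, the shares were 20.5% (394 of 1918) for replicate 1 peaks and 8.94% (313 of 3501) for replicate 2 peaks. These are shares of all peaks in the band, including those that missed the p threshold in their own replicate. Agreement also differed by the number of input reads. Of significant replicate 1 peaks with 1 input read, 60 of 216 (27.8%) were significant in replicate 2, and the share was 35.8% with 2 input reads, 60.9% with 3 to 4, 83.1% with 5 to 9 (59 of 71) and 23 of 23 peaks with 10 or more. For replicate 2 the same classes gave 15.3% (58 of 380), 23.9%, 23.2%, 34% (72 of 212) and 47.2% (25 of 53). In both directions the share was lowest with 1 input read and highest with 10 or more, and the replicate 2 classes of 2 and of 3 to 4 reads were nearly equal.

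**Figure D2:**
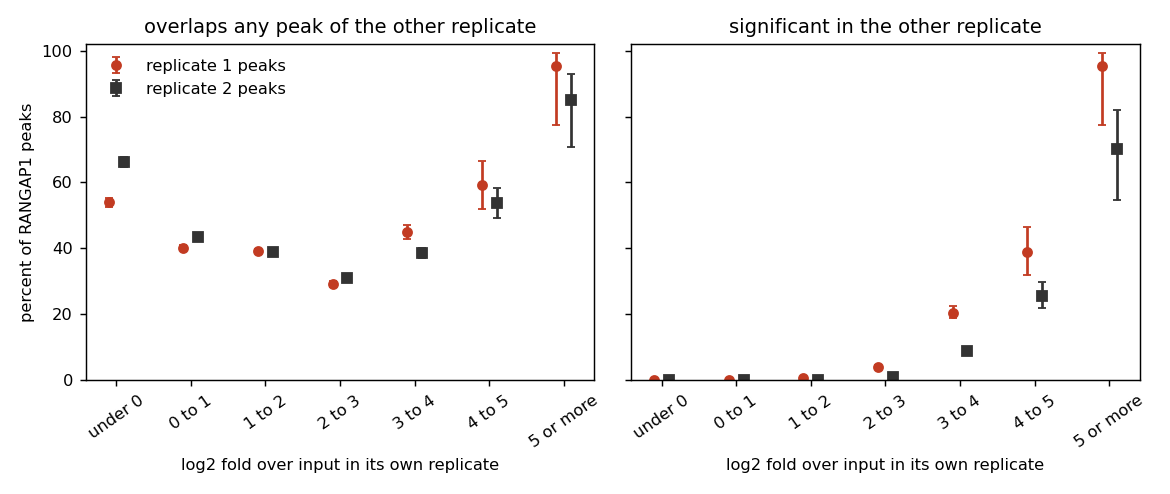
Percent of RANGAP1 peaks, by log2 fold in their own replicate, that overlap any peak of the other replicate (left panel) or a significant one (right panel); bars are 95% Wilson intervals. The left panel dips to 29.2% and 31.1% at folds of 2 to 3, while the right panel climbs to 95.2% and 70% at folds of 5 or more.

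The reproducible regions were short and lay on both strands. Their median length was 88 nt, with quartiles of 61 and 131 nt and a range of 3 to 486 nt, and 161 lay on the plus strand against 180 on the minus strand (47.2% plus, Wilson interval 42 to 52.5%). Most were only moderately above input, since the lower of the replicate folds was under 4 in 277 of them (81.2%), at least 4 in 64 and at least 5 in 11. The threshold cut through a dense part of the range. The 3 regions nearest inside it all had 3.00 in replicate 2: chr19:14316920-14316973 on the minus strand with 3.26 in replicate 1, and on the plus strand chr19:2335004-2335082 with 3.05 and chr19:1104071-1104130 with 3.02. Just outside lay chr16:69364333-69364453 on the minus strand with 2.99 and 3.55, chr7:150020440-150020580 on the plus strand with 2.99 and 3.29, and chr16:87864497-87864527 on the minus strand with 2.98 and 3.12. With both p-values past the threshold, 345 regions had a lower fold between 2.5 and 3, beside 198 reproducible regions between 3 and 3.5.

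The regions with the highest RANGAP1 folds were in large part high for other proteins as well. First by the lower of its folds stood chr17:18965402-18965452 on the plus strand. Its log2 folds of 8.93 and 8.85 rested on at least 330 and at least 259 eCLIP reads beside at least 1 input read each. Every library with a peak there was also far above its own input, from 5.69 in AIFM1 replicate 2 to 8.72 in ZNF184 replicate 2, and RNF219 had no peak. The next, chr6:31958260-31958279 on the plus strand, had 6.82 and 6.98 for RANGAP1 and was significant in all 9 other libraries, at 3.66 in RNF219 and up to 7.48 in VIM replicate 1. At chr11:32165337-32165350 on the minus strand and the piece that abuts it, RANGAP1 had 6.32 and 6.78, inside the span of the others, which ran from 1.30 in RNF219 to 7.40 in ZNF184 replicate 2. The 3 abutting pieces of chr6:10887836-10887858 on the plus strand carried RANGAP1 folds of 5.05 to 5.50 with 178 to 180 eCLIP reads against 7 or 8 input reads, and ZNF184 replicate 2 reached 8.19 there. At these loci the RANGAP1 value was one of several high values.

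A second kind among the 25 leading regions was listed as significant for RANGAP1 and for no other protein, and there were 12 of these. Of the 25, 7 lay on chromosome 19, which held 6.51% and 6.58% of all deposited peaks of RANGAP1 replicates 1 and 2. The plus-strand region chr19:2336725-2336778 reached 5.21 and 5.87 on the log2 scale with 25 and 33 eCLIP reads beside 1 input read each (intervals 2.59 to 10.57 and 3.30 to 11.22), and no other library had a peak there. The same held for chr19:1407607-1407651 on the plus strand, with 5.56 and 5.00 from 32 and 18 reads, and for chr19:47732153-47732194 on the minus strand, with 4.95 and 5.69 from 21 and 29 reads. These were the 3 leading regions that no other library listed. At chr3:184429430-184429590 on the minus strand, RANGAP1 had 5.02 and 4.83, and the single peak elsewhere was at 0.17 in NUMA1 replicate 1. At chr9:25678142-25678268 on the minus strand it had 5.09 and 4.83, against −0.49 to 1.29 in 3 other libraries. At chr19:3062202-3062370 on the minus strand it had 4.56 and 5.00 from 32 and 36 reads beside 2 input reads each, against −1.25 in RNF219 and up to 2.28 in ZNF184 replicate 1, with peaks in 7 other libraries. Not all of the 12 were low elsewhere, and some passed the fold threshold in another library without the p. VIM replicate 1 had 3.86 at chr3:51428992-51429057 on the plus strand and 3.01 at chr14:74180549-74180606 on the minus strand. NUMA1 replicate 1 had 3.17 at chr5:857312-857416 on the minus strand. A single input read stood behind both RANGAP1 values in 13 of the 25 regions, and their intervals span several log2 units.

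**Figure D3:**
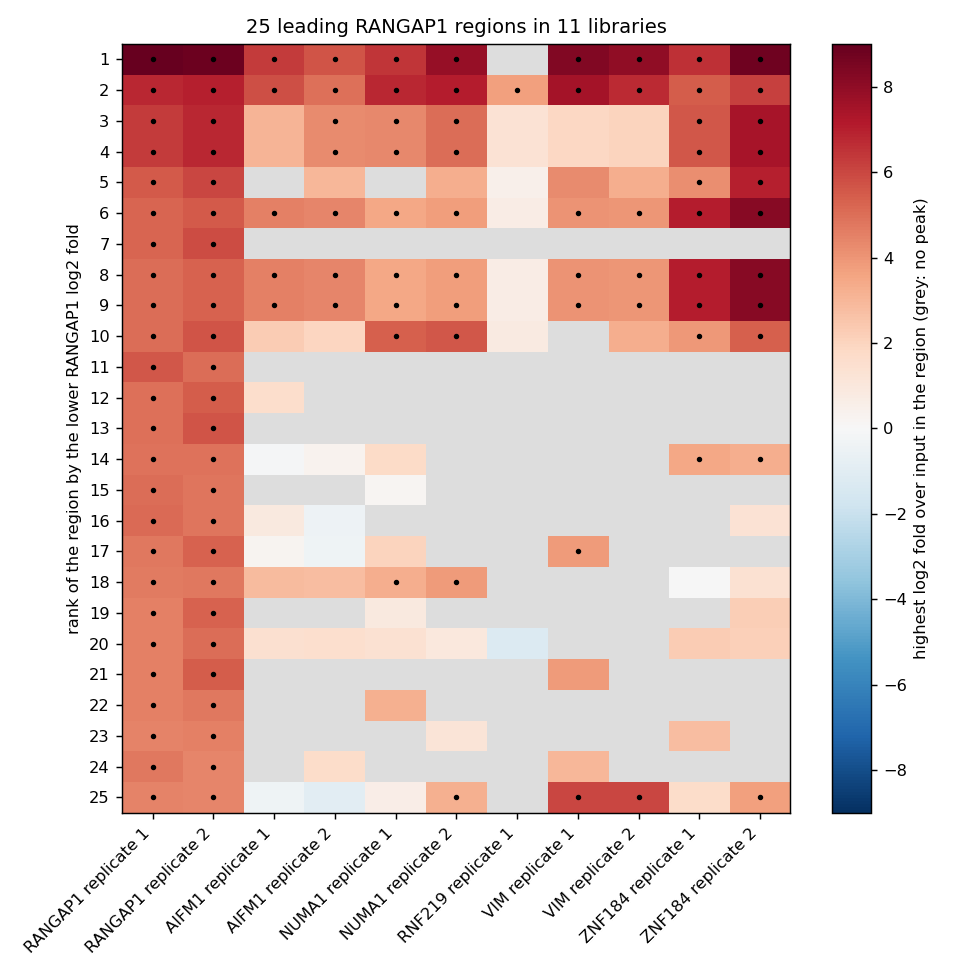
Highest log2 fold over input in the 25 reproducible RANGAP1 regions with the highest lower fold (rows, by rank) in all 11 eCLIP libraries (columns, RANGAP1 at the left); black dots mark significant peaks and grey marks no deposited peak. Rows 1 and 2 are red across nearly all libraries, whereas rows 7, 11 and 13 have values in the RANGAP1 columns alone.

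Over all 341 reproducible regions, 281 (82.4%, Wilson interval 78 to 86.1%) were significant with no other protein. The other libraries called between 0.214% and 5.29% of all their own peaks. These shares are per peak, and the matching share over all 82629 RANGAP1 regions was not analysed here. The 82.4% is therefore no measure of specificity for RANGAP1. By protein, 9.97% of the 341 regions were significant with ZNF184, 8.8% with VIM, 5.28% with NUMA1, 2.64% with AIFM1 and 0.293% with RNF219. A region counted here if any peak of any library of that protein was significant, so these shares cannot be read against the shares of single peaks. Of the 341 regions, another 44 were significant with 1 other protein, 7 with 2, 3 with 3, 5 with 4 and 1 with all 5. The 3 abutting pieces of chr6:10887836-10887858 count separately among those with 4, and the abutting pieces on chromosome 11 among those with 3. Calls elsewhere were missing both at lower values and where no peak was listed. Among the 281 regions, 236 had a peak of at least 1 other protein, 114 had peaks of at least 3 and 21 had peaks of all 5, while 45 had none. Where others had a peak, the highest of their log2 folds had a median of 2.03 over the 281 regions, and in 76 the lower RANGAP1 fold exceeded it by more than 2. These regions were chosen for a high RANGAP1 fold, so a lower value elsewhere is described here and not tested.

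The counts of shared regions differed between the other proteins, as did the lengths of their lists and their shares of significant peaks. ZNF184, with 93734 regions in all and 3.15% and 4.82% of its peaks significant, had a peak in 203 of the 341 regions and a significant one in 34, with a median highest log2 fold of 1.99. VIM, with 21669 regions and 5.29% and 4.5% of peaks significant, had a peak in 138 and a significant one in 30, with a median of 2.43. NUMA1, with 62868 regions and 1.51% and 0.877% of peaks significant, had a peak in 200 with 18 significant and a median of 1.25. AIFM1, with 38302 regions and 0.216% and 0.214% of peaks significant, had a peak in 228 with 9 significant and a median of 1.10. RNF219, with 24624 regions and 0.926% of peaks significant, had a peak in 63, a single one of them significant, with a median of −0.51, and 42 of the 63 were below its input. Depth limits this comparison, because beside 1 input read a significant peak took only 5 eCLIP reads in VIM replicate 1 but 23 in AIFM1 replicate 2.

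Folds could be set side by side where the other libraries had values too. A peak in at least 8 of the 9 other libraries existed for 38 reproducible regions, of which 18 were significant with no other protein. RANGAP1 was above every other library with a peak in 22 of the 38, by more than 1 log2 unit in 12. The margin of the lower RANGAP1 fold over the highest other fold had a median of 0.25 over the 38. All 38 were chosen for high RANGAP1 folds, and the other libraries met no such filter. The counts of 22 and 12 are therefore no measure of specificity for RANGAP1 and were not tested. Abutting pieces of a locus count separately among the 38. The regions named next are those with the widest margins. The widest margin was at chr3:129034759-129034801 on the minus strand, where RANGAP1 had 3.65 in replicate 1 and a value higher by 0.35 in replicate 2 (17 and 18 eCLIP reads beside 2 input reads each), and 8 other libraries ran from −1.45 in RNF219 to 0.93 in VIM replicate 2. At chr19:56181802-56181916 on the plus strand RANGAP1 had 4.23 in replicate 1, from 153 eCLIP and 12 input reads (interval 3.39 to 5.22), and 5.22 in replicate 2, where p was at its ceiling. All 9 other libraries were lower there, from −1.20 in RNF219 to 1.85 in VIM replicate 2. At chr6:117996691-117996777 on the plus strand it had 3.70 and 4.51 from 44 and 64 reads beside 5 input reads each, against −0.30 in AIFM1 replicate 1 and up to 1.86 in VIM replicate 1.

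A group of 11 regions had at least 10 input reads behind both RANGAP1 values and so the narrowest intervals. The strongest was chr20:34638394-34638879 on the minus strand, the longest reproducible region at 486 nt, with 4.36 and 4.51 from 195 and 180 eCLIP reads beside 14 input reads each (intervals 3.58 to 5.26 and 3.73 to 5.41). The other proteins ran there from −0.12 in NUMA1 replicate 1 to 3.66 in ZNF184 replicate 2. Near it on the same strand, chr20:34634709-34634772 had 3.41 and 3.87 from 72 and 82 eCLIP reads beside 10 input reads each, against −0.47 in ZNF184 replicate 1 and up to 1.62 in VIM replicate 1. At chr8:37556062-37556125 on the plus strand RANGAP1 had 3.16 and 3.58 from 103 and 101 eCLIP reads beside 17 and 15 input reads, and the one peak elsewhere was below input, at −0.32 in AIFM1 replicate 2. Not all deep regions were higher for RANGAP1: at chr22:38203104-38203161 on the plus strand its 3.30 and 3.73 stood beside 4.13 in VIM replicate 2 and 3.38 in ZNF184 replicate 2. Its lower fold was also just under another library at chr19:1592623-1592701 on the minus strand, 3.12 against 3.27 in VIM replicate 1. The same held at chr16:30535618-30535670 on the minus strand, 3.15 against 3.22 in ZNF184 replicate 2. At chr8:98788021-98788335 on the plus strand it was 3.24 against 3.25 in ZNF184 replicate 1.

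Significant RANGAP1 regions also came in runs along 1 strand. With a run defined as at least 3 significant regions with gaps of at most 2000 nt, there were 85 runs, 46 on the plus and 39 on the minus strand, with a median span of 882 nt and a longest span of 4100 nt. They held 350 of the significant regions (18.1%) and 69 of the reproducible ones (20.2%). In 46 of the 85 runs no other library had a significant peak. Runs were chosen by significant RANGAP1 peaks, and the other libraries called only 0.214% to 5.29% of their own peaks. The count of 46 is therefore no measure of specificity for RANGAP1. The chromosomes with most runs were chromosome 19, with 10, and chromosome 16, with 9. Chromosome 19 held 6.51% and 6.58% of all deposited peaks of replicates 1 and 2, and chromosome 16 held 5.73% and 5.82%. The run counts were not tested against these shares. In 37 runs there was no reproducible region.

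The most reproducible regions in a run were 4, in a pair of runs on chromosome 19. The longer, chr19:2334785-2338553 on the plus strand, had 10 significant regions. It contained chr19:2336725-2336778, described above, and chr19:2335775-2335826, which had 4.95 and 5.42. RANGAP1 had 12 peaks of each replicate in it, with medians of 3.01 and 3.22, and 8 other libraries had 24 peaks in all. Their 4 significant ones were those of ZNF184, 1 in replicate 1 and 3 in replicate 2. The median of ZNF184 replicate 2 there was 4.25, from 4 peaks, above both RANGAP1 medians. Libraries differ in their median over all deposited peaks. With that median subtracted, ZNF184 replicate 2 had 2.96, still above the 1.77 and 1.81 of RANGAP1. The shorter, chr19:34287176-34287886 on the plus strand, had 5 significant regions and RANGAP1 medians of 4.37 and 4.49. All 9 other libraries had peaks there, with medians from −1.68 in RNF219 to 4.52 in VIM replicate 2, and 6 of them had 9 significant peaks in all. After the same subtraction, RANGAP1 had 3.13 and 3.08 there and VIM replicate 2 had 2.32. The run chr22:20110174-20112548 on the plus strand had 6 significant and 3 reproducible regions and none significant elsewhere. Its reproducible regions had 3.88 and 4.25, 3.47 and 3.64, and 3.06 and 3.57, in replicates 1 and 2 each, and 5 other libraries had 13 peaks with medians of 0.26 to 2.05.

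The other 7 of the 10 runs ranked first by reproducible regions, and then by significant regions, were spread over 7 chromosomes. The runs chr7:150929591-150930134 and chr14:50359827-50360462, both on the plus strand, had 4 significant regions each, 3 of them reproducible, with RANGAP1 medians of 3.25 and 3.64 in the chromosome 7 run and 2.88 and 3.25 in the chromosome 14 run. Other libraries had 3 significant peaks in the chromosome 7 run and 2 in the chromosome 14 run. Their highest medians were 4.03 in the chromosome 7 run, from 1 peak of ZNF184 replicate 1, and 2.93 in the chromosome 14 run, in ZNF184 replicate 2. With library medians subtracted these were 2.81 and 1.64. RANGAP1 then had 2.01 and 2.22 in the chromosome 7 run, and 1.64 and 1.83 in the chromosome 14 run. On the minus strand, chr5:856019-860118 spanned 4100 nt with 12 significant and 2 reproducible regions, and NUMA1 gave the 3 significant peaks elsewhere. The run chr3:51428801-51430130 on the plus strand had 7 significant and 2 reproducible regions, with 1 significant peak elsewhere, in VIM replicate 1. RANGAP1 medians there were 3.37 and 3.20, below the 3.77 of VIM replicate 1, which came from 2 peaks. The runs chr16:87771903-87775872 on the minus strand, with 7 significant regions, and chr19:1407607-1409286 on the plus strand, with 5, had 2 reproducible regions each. No other library had a significant peak in the chromosome 16 run, and 1 had, VIM replicate 2, in that of chromosome 19. The 3 pieces of chr6:10887836-10887858 also count as a run because they abut.

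In some runs no other library had a significant peak, and in 1 of those named no other library had a peak. The run chr16:1785468-1787758 on the plus strand, 2291 nt long, held 5 peaks of each RANGAP1 replicate, every one significant, and no peak of any other library. Its replicate 1 folds were 4.56, 4.09, 4.73, 4.15 and 4.26 and its replicate 2 folds 3.89, 4.59, 3.42, 4.92 and 4.29, in 5′ to 3′ order, from 11 to 27 eCLIP reads beside 1 to 3 input reads. The replicates met in 1 region, chr16:1785811-1785876, at 4.09 and 4.59. The other peaks of the 2 replicates lay in the same stretch without overlapping. In chr19:41193113-41196602 on the minus strand, 12 regions were significant and 1 was reproducible, chr19:41195825-41195937 with 3.37 and 3.42, and 7 other libraries had 17 peaks, none of them significant, with medians from 0.78 in RNF219 to 2.70 in ZNF184 replicate 2.

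**Figure D4:**
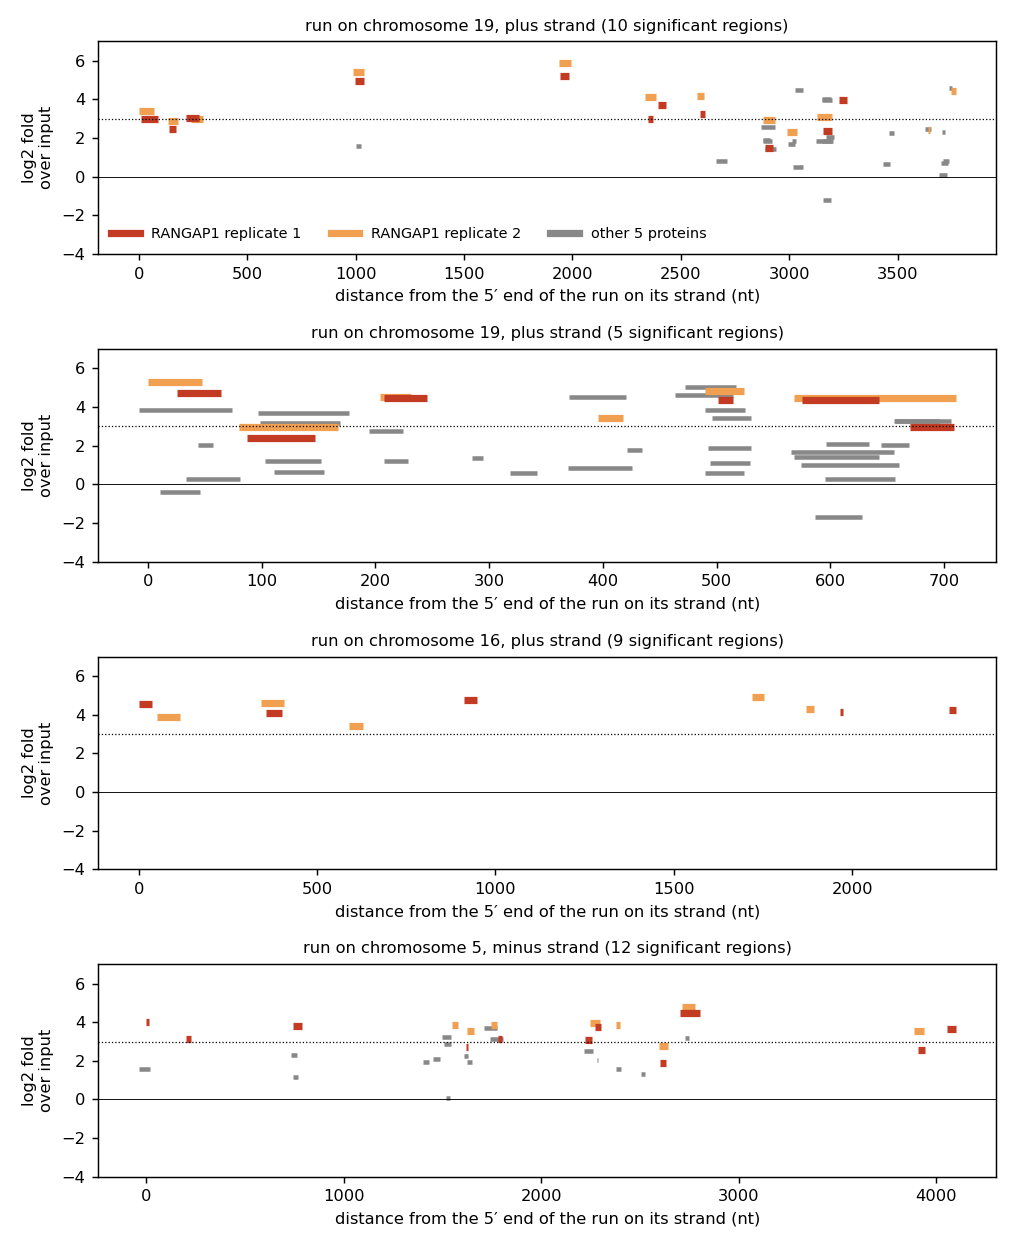
RANGAP1 peaks in 4 runs, drawn by distance from the 5′ end of the run on its strand (horizontal axis, nt) and log2 fold over input (vertical axis), with peaks of the other 5 proteins in grey; the dotted line marks a log2 fold of 3. The chromosome 16 run shows 5 peaks of each RANGAP1 replicate and no grey bar, while the shorter chromosome 19 run has grey bars along its whole length.

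RANGAP1 was set against the other libraries in 4 measures of the significant peaks, with a 2-sided exact permutation test that took all 55 choices of 2 from 11 libraries. The smallest p this design allows is 0.0182, and the smallest after Benjamini-Hochberg adjustment for a single passing measure of 4 is 0.0727. Replicates of a protein share an antibody and an input, so the 11 libraries are not fully independent. Their values were not close in every measure: the mitochondrial share was 7.69% and 23.5% in the AIFM1 replicates. With the mean of each protein as the unit, 1 against 5, the smallest possible exact p is 0.167. Significant RANGAP1 peaks had the longest medians of the 11 libraries, 57 and 58 nt (mean 57.5 ± 0.707, SD, n = 2), against 24.5 nt in AIFM1 replicate 1 to 51 nt in NUMA1 replicate 1 (mean 38.4 ± 8.17, SD, n = 9). The difference of 19.1 nt had the smallest exact p allowed, 0.0182, and an adjusted p of 0.0727 in the permutation test, so it did not pass 0.05 after adjustment. With proteins as the unit the difference was 19.6 nt and the exact permutation p was 0.167. Over all deposited peaks the median length was 34 nt in both RANGAP1 libraries, inside the 28 to 36 nt of the others. Among significant peaks with 10 to 30 recovered eCLIP reads the RANGAP1 medians were 56 and 57 nt, against 35 to 59 nt in the others, and the 59 nt came from 12 peaks of AIFM1 replicate 2. The length difference was then 10.8 nt, with an exact permutation p of 0.109.

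**Figure D5:**
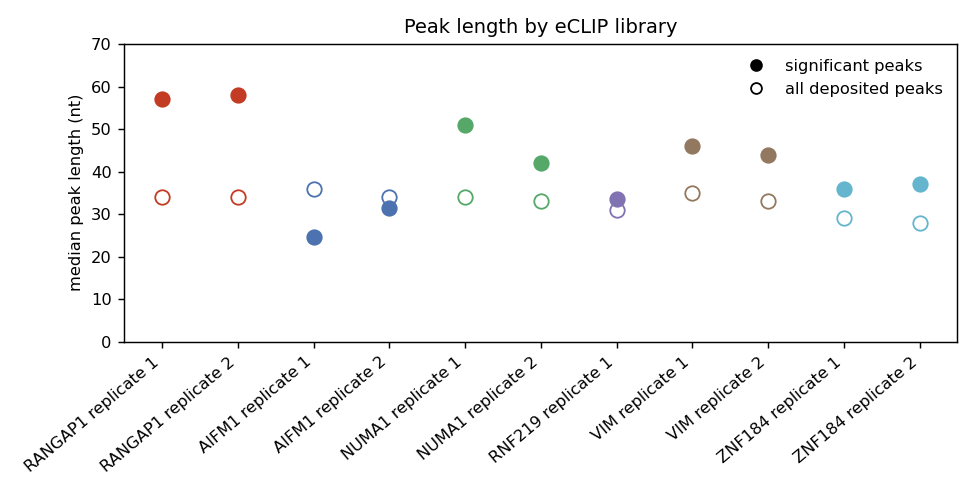
Median peak length (nt) in each of 11 eCLIP libraries, with filled circles for significant peaks and open circles for all deposited peaks. The RANGAP1 libraries at the left have the highest filled circles, at 57 and 58 nt, and open circles at 34 nt like those of the others.

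The other measures did not pass the permutation test either. The plus strand held 48% and 49.3% of significant RANGAP1 peaks, against 45.2% to 66.2% in the others, and the difference of −6.6 percentage points had an exact p of 0.218 and an adjusted p of 0.436. Without the RNF219 library it was −7.86 points, with an unadjusted exact permutation p of 0.0444. The share of significant peaks in runs, found within each library, was 6.91% and 17.8% for RANGAP1, against 0% in AIFM1 replicate 1 to 54.8% in RNF219. That difference was −3.85 points with an exact permutation p of 0.782 (adjusted 0.782), and it turned positive, to 1.58 without RANGAP1 replicate 1 and to 0.98 without the RNF219 library. The mitochondrial share was 0.247% and 0% for RANGAP1, against 0% to 23.5% in the others, a difference of −6.24 points with an exact p of 0.509 (adjusted 0.679).

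Most RANGAP1 peaks on the mitochondrial chromosome, whose transcripts are made and kept inside the organelle, were below input. On its plus strand, 115 of 130 peaks of replicate 1 and 116 of 121 peaks of replicate 2 were below input, with median log2 folds of −0.68 and −1.11, and none was significant. The plus-strand medians of the other libraries ran from −0.72 in ZNF184 replicate 2 to 2.03 in RNF219, so replicate 2 of RANGAP1 was the lowest of the 11 and replicate 1 lay between ZNF184 replicate 2 and VIM replicate 1, at −0.61. The minus strand had 8 and 7 RANGAP1 peaks, of which 2 of replicate 1 were significant, at up to 3.58, against a highest of 2.91 in replicate 2.

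On chromosome 19 RANGAP1 had 33 of its 341 reproducible regions (9.68%). The chromosome held 9.88% and 8.82% of the significant peaks, beside 6.51% and 6.58% of all deposited RANGAP1 peaks. In the other libraries its share of significant peaks ranged from 0% to 8.6%, and its share of all peaks from 6.13% to 10.4%. This share was not among the tested measures.

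A small set of regions was far below input with RANGAP1. A log2 fold of −3 or lower in every peak of both replicates was found in 19 regions, and all 19 had a peak of at least 1 other library. The lowest single value was at chr14:50329293-50329342 on the minus strand, with −4.97 and −5.98 for RANGAP1, against −6.39 in RNF219 to −2.29 in AIFM1 replicate 2. At chr15:65588443-65588488 on the plus strand RANGAP1 had −5.06 and −5.10, against −6.84 in NUMA1 replicate 2 to −0.44 in ZNF184 replicate 2. In 12 of the 19 regions every other library with a peak was below its input too. RANGAP1 was below every other library with a peak in 6 of the 19, of which not all are among those 12. The widest gap to the others was at chr10:120819524-120819586 on the minus strand, where RANGAP1 had −4.28 and −4.01, against −0.51 in RNF219 and −0.76 and 1.49 in ZNF184. Over the 19 regions the other libraries had a median log2 fold of −2.94.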

How the data were processed

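The processed data were 11 eCLIP peak lists from 293T cells, 1 per library and none pooled; the 6 inputs had no list and entered through the folds. Per the labels' protocols, RNA was taken from a gel window reaching 75 kDa (about 150 nt of RNA) above the protein. Tools named, per the submitters' processing notes, are STAR, cutadapt, SAMtools, Picard and GATK, with hg19 as build. Versions, peak caller and duplicate removal were not given in the sources used here. For each peak the authors deposited a −log10 p and a log2 fold over the size-matched input; peaks below input carry a −log10 p of 0. The deposited −log10 p does not exceed 400, and exact p-values end near 15.7. Of the RANGAP1 p-values that could be checked, 99.8% in each replicate matched an unadjusted exact or chi-square p, and no adjustment was added.

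Scripts in Python 3.11.15 (numpy 2.4.6, pandas 2.3.3, scipy 1.17.1, matplotlib 3.10.9) recovered reads from the log2 fold and the p, and were tested on simulated data. With the constant, 97.9% and 98.0% of RANGAP1 folds were ratios of whole numbers to within 1e-07 (log2), and 0% with a wrong constant. Reads are settled where 1 pair matched the p to within 0.005 (log10), 86.6% and 90.2% of RANGAP1 peaks, and otherwise given as "at least". Total reads per library are unknown. Sample titles gave the groups and replicate numbers. Replicates are called biological in the series, with no culture named, so the tests measure the spread between these libraries. Named regions were drawn from the 25 reproducible regions with the highest lower fold, the 10 runs with most reproducible regions, and 3 regions on each side of the fold threshold; further regions were chosen after their values were seen, as those measured in most libraries, with most input reads, in the longest runs or lowest. Members, measures and lists were chosen with earlier results of these data known. Alternatives were other thresholds, overlaps and left-out libraries. The planned gene lists, transcript parts and base composition need an hg19 annotation and were not analysed here.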

Additional observations from a re-analysis of the deposited data

How the results depend on the processing

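Counts moved with the thresholds. At a log2 fold of at least 4, significant peaks numbered 193 in replicate 1 and 510 in replicate 2, reproducible regions 64, and those significant with no other protein 50. At a log2 fold of at least 2 the same counts were 2278, 3587, 1164 and 857. At a −log10 p of at least 5 they were 309, 744, 174 and 143. A single replicate leaves only its own significant regions, 782 to 1494. Requiring overlap of 50% of the shorter peak, merging abutting pieces or merging pieces within 100 nt gave 315 to 352 reproducible regions.

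The length difference stayed positive under every alternative run, from 10.8 nt at matched reads, chosen after seeing the data, to 30.6 nt at a −log10 p of at least 5, and from 17.4 to 20.7 nt with 1 library left out. The differences ranged from −7.86 to −5.23 points for the plus strand, −7.04 to −4.1 for the mitochondrial share and −9.28 to 1.58 for runs when leaving out each library. Without both AIFM1 libraries they were −3.59 points for the plus strand, −3.6 for the mitochondrial share, −5.95 for runs and 16.1 nt. With the mean of each protein as the unit, added after seeing the data, they were −5.59, −7.93, −7.71 and 19.6 nt, with exact p-values of 0.167 or more. The run share was the one that reversed, at 1.58 without RANGAP1 replicate 1 and 0.98 without RNF219. Subtracting the value over all deposited peaks, also chosen after seeing the data, gave 17.7 nt, −7.09 points for the plus strand and −5.97 for the mitochondrial share. With the replicate number as a block the differences were 19.1 nt (exact p = 0.0333, the smallest it allows), −6.8, −6.24 and −3.7 points, and no call changed. No other paired analysis was possible because both replicates share 1 input and the counts come from no test. Alternatives for transcript parts were not run. Depth limits many folds: 216 and 380 significant RANGAP1 peaks rest on 1 input read, 27% and 24.9% of those with settled reads.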
